A study of Mus musculus with 2 samples.

Results

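The nuclear genes of the mitochondrial respiratory chain and ATP synthase were described in total RNA of mouse neutrophils. They were chosen by name: every gene with a protein-coding transcript whose symbol starts with Nduf, Uqcr, Atp5 or Cox4 to Cox8, together with Sdha, Sdhb, Sdhc, Sdhd, Cyc1 and Cycs. Symbols ending in -ps were left out. The rule found 96 genes under 95 symbols among 55536 annotated genes, since Atp5o stands under 2 identifiers. No measured value was used to choose them. By complex, 44 belonged to complex I, 4 to complex II, 9 to complex III, 20 to complex IV and 18 to complex V, and 1 was the carrier cytochrome c. Of the 96, 84 encode structural subunits, and the others are assembly or associated factors, cytochrome c and the second Atp5o identifier.

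The series has 1 group of 2 libraries, labelled biological replicates 1 and 2. Both hold RNA of primary cells labelled neutrophil and spleen, from adult male B6CASTF1/J mice (mother C57BL/6, father CAST/EiJ) of 59 days with no treatment labelled. Each library began with 300 ng of RNA, was reduced for ribosomal RNA, keeps strand and carries ERCC spike-in controls. The biosample labels differ and the donor label is shared, so the spread between the libraries may be technical, and no comparison of conditions exists. The depth was 18836093 estimated reads for replicate 1 and 18444369 for replicate 2.

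Complexes I to IV pass electrons from NADH or succinate through ubiquinone and cytochrome c to oxygen, and complex V uses the proton gradient that complexes I, III and IV build to make ATP. Most subunits are encoded in the nucleus and imported, while the mitochondrial genome encodes a few core subunits of every complex except complex II. Neutrophils are known for few mitochondria and for an energy supply that rests mainly on glycolysis, and their dividing precursors in the marrow for more active mitochondria.

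The 11 neutrophil marker genes examined were all present, led by S100a9 at 23978 TPM in replicate 1 and 22469 TPM in replicate 2 (TPM, a level per length that sums to a fixed total over all features of a library). All 5 genes of proliferating precursors were present too, with sums of 416 and 506 TPM, among them Mki67 at 115 and 129 TPM. Monocyte genes summed to 1622 and 1457 TPM, basophil genes to 114 and 114 TPM, and erythroid genes to 952 and 949 TPM. Most of the erythroid sums stood on Hba-a1 at 527 and 570 TPM and Hbb-bs at 400 and 315 TPM. B cell genes summed to 31.8 and 18.6 TPM, macrophage genes to 33.5 and 29.3 TPM, and platelet genes to 20.2 and 18.2 TPM. T cell genes summed to 2.65 and 0.70 TPM and muscle genes to 1.77 and 1.88 TPM. The part of these other cells in the levels below was not tested, and in bulk RNA fewer cells of a type and less RNA per cell cannot be told apart.

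Promoter sequence is shown first, because motifs of the factors known to control these genes stand in it. NRF1, the ETS factor GABP and YY1 are known activators of respiratory chain genes. Of the 95 symbols, 75 matched a promoter in RefSeq, with 80 start sites in all (build GRCm38.p6, 250 bases before to 50 after the start). One promoter is printed for each motif, from the 250 bases before the start, with the motif in capitals. Cox6a1 (chr5:115348959-115349208, minus strand) holds the NRF1 core GCGCATGC, Atp5h (chr11:115419920-115420169, minus strand) holds the ETS motif CCGGAAGT as its reverse complement ACTTCCGG, and Atp5j (chr16:84834977-84835226, minus strand) holds the YY1 motif AAGATGGC.
Cox6a1 promoter: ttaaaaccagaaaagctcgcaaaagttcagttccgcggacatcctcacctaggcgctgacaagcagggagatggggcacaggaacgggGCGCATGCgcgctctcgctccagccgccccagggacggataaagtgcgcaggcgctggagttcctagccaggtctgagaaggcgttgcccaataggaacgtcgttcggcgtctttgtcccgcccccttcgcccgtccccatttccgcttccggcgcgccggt
Atp5h promoter: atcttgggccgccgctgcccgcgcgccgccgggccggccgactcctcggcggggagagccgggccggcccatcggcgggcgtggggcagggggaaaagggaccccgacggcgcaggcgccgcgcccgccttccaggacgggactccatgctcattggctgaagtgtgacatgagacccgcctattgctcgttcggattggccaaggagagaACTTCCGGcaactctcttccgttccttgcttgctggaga
Atp5j promoter: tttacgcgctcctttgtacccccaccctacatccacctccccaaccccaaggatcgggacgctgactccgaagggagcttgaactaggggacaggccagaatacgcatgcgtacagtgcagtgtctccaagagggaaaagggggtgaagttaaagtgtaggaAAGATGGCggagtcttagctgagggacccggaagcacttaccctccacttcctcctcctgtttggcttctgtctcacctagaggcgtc

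On either strand, the NRF1 core stood in 13 of 80 member promoters (16.2%) and in 891 of 32851 promoters of the same length in the table (2.71%). The YY1 motif stood in 10 member promoters (12.5%) against 2.75% of all, and the ETS motif in 5 (6.25%) against 3.89%. Any of these motifs was found in 27 member promoters (33.8%) and in 8.83% of all. The NRF1 core overlaps its own reverse complement GCATGCGC by all but 2 bases, so one place can count on both strands, as in Cox6a1 at 158 bases before the start; in that way 21 sites were listed. Their middle position was 46 bases before the start, and that of the 10 YY1 sites lay 27.5 bases after it. The TATA box letters TATAAA stood in 8 member promoters (10%) against 13.6% of all. Member promoters had a median GC content of 58% against 52.7%, and a median ratio of observed to expected CpG of 0.83 against 0.38. The NRF1 and ETS letters hold CpG, and the part of this composition in their shares was not tested. These shares describe letters in a window of sequence, with no measure of binding in the data.

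The factors that bind these motifs were present. Nrf1 stood at 24.7 TPM in replicate 1 and 24.6 TPM in replicate 2, Yy1 at 27.5 and 30.3 TPM, and Gabpa, the DNA-binding subunit of GABP, at 15.4 and 15.6 TPM. Hif1a, which switches cells toward glycolysis in low oxygen, stood at 32.8 and 26.1 TPM, the highest by mean of the 12 regulators of mitochondrial biogenesis listed, and below Yy1 in replicate 2. Ppargc1a, the coactivator that drives mitochondrial biogenesis in muscle and brown fat, had 0 reads and 1 read, while its relative Ppargc1b stood at 1.10 and 1.24 TPM. Esrrg and Ppara had no reads in either library. Of this list, 9 genes reached 1 TPM in both libraries.

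Many members share their promoter region with another gene. A protein-coding gene on the opposite strand started within 1000 bases upstream of 23 of the 96 members (24.0%), against 6.77% of 22028 protein-coding genes and 10.4% of the 5853 at 10 TPM or more in both libraries. Examples were Ndufa7 beside the ribosomal protein gene Rps28 at 10 bases, Sdha beside Ccdc127 at 29 bases and Sdhd beside Timm8b, a mitochondrial import chaperone, at 98 bases. The members lay on 19 chromosomes, 3 of them on X.

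The structural subunit genes were present nearly throughout. Of 84, 76 reached 1 TPM in both libraries, and the same number reached 10 TPM. Median levels were 41.2 and 43.6 TPM in the order of the replicates (42.4 ± 1.70, SD, n = 2). Set among the 10211 protein-coding genes at 1 TPM or more in both libraries, whose median was 13.6 TPM, the 76 subunit genes that reached that level had a median percentile of 83.4; the other 8 are not in it. Of the subunit genes, 17 were among the 1021 highest of those genes, a group that began at 73.3 TPM.

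The members are short, and reads and levels per length give different pictures of them. Their median length was 683 bases against 2168 bases for the protein-coding genes at 1 TPM. The 96 members took 0.384% of the reads of protein-coding genes in replicate 1 and 0.409% in replicate 2, but 0.936% and 0.992% of their TPM. The 13 protein-coding genes of the mitochondrial genome took 0.636% and 0.650% of the reads, and their TPM summed to 5902 and 5768 against 4370 and 4646 for the members. In a second transcript table deposited for the same libraries, this order of the sums turned. There the members summed higher than the mitochondrial genes in both libraries. However, mt-Atp8 stood at 0 TPM in both libraries there, against 508 and 479 TPM in the gene table. Likewise mt-Co2 went from 978 and 578 TPM to 239 and 394 TPM, while mt-Co3 went from 479 and 337 TPM up to 486 and 737 TPM. The part of these genes in the turned order was not tested. Transcripts of the mitochondrial genome make the other subunits of the same complexes. In the gene table mt-Co1, the catalytic subunit of complex IV, alone reached 1219 and 1385 TPM.

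**Figure D1:**
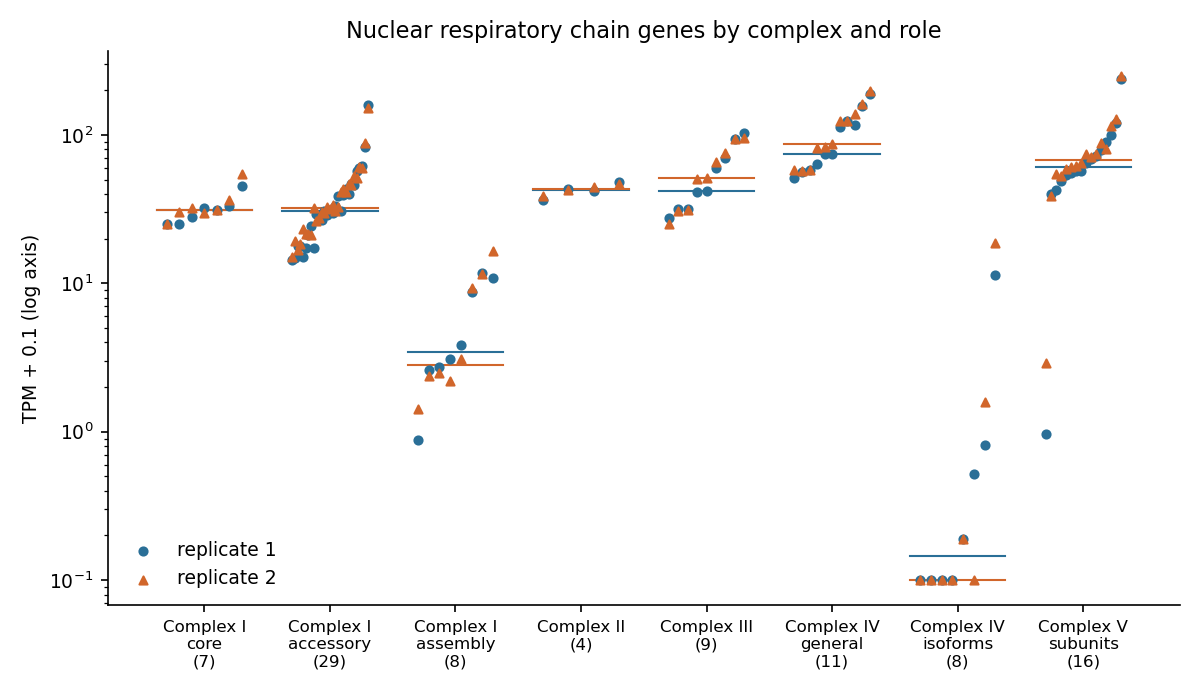
TPM plus 0.1 on a log axis for the genes of each complex and role, with the number of genes in brackets (blue circles, replicate 1; orange triangles, replicate 2; lines, medians). Complex I assembly factors and the complex IV tissue isoforms lie below the other groups, and 1 complex V subunit, Atp5g2, lies apart at 0.86 and 2.81 TPM.

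Complex I, the NADH dehydrogenase, was the complex with the lowest median. The median of its 36 subunit genes was 30.6 TPM for replicate 1 and 31.8 TPM for replicate 2, and all reached 10 TPM. The 7 core subunit genes, which carry the flavin and iron-sulfur clusters, had medians of 31.0 and 30.8 TPM, with Ndufs1 the lowest of them at 24.8 and 24.9 TPM. The 29 accessory subunit genes had nearly the same median, 30.5 and 32.2 TPM, and a wider range.

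Among all complex I subunit genes, the 3 highest by mean TPM were accessory: Ndufa3 at 159 and 151 TPM, Ndufb8 at 82.6 and 88.5 TPM, and Ndufa7 at 61.4 and 59.9 TPM. Ndufb7 lay within the spread of Ndufa7 at 59.8 and 60.3 TPM, and above it by mean in the second table. The 3 lowest were Ndufb4 at 14.3 and 14.9 TPM, Ndufa5 at 14.7 and 19.3 TPM, and Ndufb2 at 17.7 and 16.5 TPM. Mean levels spanned 10.6-fold across the subunit genes of this complex.

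The genes of complex I assembly were much lower than those of its subunits. The 8 Ndufaf members had medians of only 3.36 and 2.69 TPM. The difference of the medians of log2(TPM + 1), subunit minus assembly factor, was 2.86 in replicate 1 and 3.15 in replicate 2 (3.01 ± 0.21, SD, n = 2; 8.05-fold). Ndufaf3 at 10.7 and 16.3 TPM, Ndufaf7, a methyltransferase, at 11.7 and 11.4 TPM, and Ndufaf8 at 8.62 and 9.13 TPM were the highest. The other 5 were lower in both libraries: Ndufaf1 stood at 3.74 and 2.99 TPM, Ndufaf5 at 2.98 and 2.08 TPM, Ndufaf4 at 2.63 and 2.40 TPM, Ndufaf6 at 2.52 and 2.28 TPM, and Ndufaf2 at 0.78 and 1.32 TPM. The ranges touch: Ndufaf3 was below Ndufb4, the lowest subunit gene, in replicate 1 and above it in replicate 2, where Ndufb4 stood at 14.9 TPM. In the second transcript table deposited for the same libraries, Ndufaf3 at 20.96 and 28.4 TPM lay within the range of the subunit genes.

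Assembly genes with other names were also lower than the subunit genes at the median, with exceptions in the other complexes. Of 7 further complex I factors matched, Foxred1 led at 9.71 and 12.3 TPM, followed by Acad9 at 8.52 and 11.98 TPM and Timmdc1 at 5.03 and 5.61 TPM, and Nubpl, which supplies iron-sulfur clusters, had 0.52 and 0.72 TPM. The 32 assembly factors of the other complexes had medians of 5.38 and 5.85 TPM. Their highest were Pet100 at 57.0 and 41.4 TPM, the copper chaperone Cox17 at 36.0 and 37.6 TPM, and Cox14 at 22.2 and 24.9 TPM, and Sdhaf3 was under 1 TPM at 0.25 and 0.19.

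Complex II, succinate dehydrogenase, has only 4 subunits, and their genes were nearly level. The flavoprotein gene Sdha stood at 43.3 TPM in replicate 1 and 42.3 TPM in replicate 2, and the iron-sulfur subunit gene Sdhb at 41.5 and 44.3 TPM. The membrane anchor genes Sdhc and Sdhd stood at 48.2 and 46.5 TPM and at 36.5 and 38.8 TPM. The highest mean was 1.26-fold above the lowest, the narrowest range of the 5 complexes in the gene table, with only 4 genes to span it. Sdha and Sdhb lie within the spread between the libraries.

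Complex III, the cytochrome bc1 complex, had medians of 41.8 and 51.5 TPM over 9 genes. In the gene table its nuclear-encoded subunits that carry electrons were the low end. Cyc1, cytochrome c1, stood at 27.3 and 24.9 TPM and Uqcrfs1, the Rieske iron-sulfur protein, at 31.4 and 30.9 TPM. Uqcrc2, a large matrix-facing core protein, was at their level with 31.6 and 30.6 TPM. In the second table Cyc1 stood higher at 47.1 and 40.3 TPM. There it was above Uqcrc2 at 42.2 and 39.1 TPM and Uqcrfs1 at 32.1 and 29.6 TPM. Uqcrh, the hinge protein, at 103 and 95.03 TPM, Uqcrq at 93.5 and 93.3 TPM, and Uqcrc1 at 69.9 and 74.8 TPM were the 3 highest. Protein-coding transcripts held 49.3% and 46.5% of the TPM of Uqcrh, against 90.6% and 89.0% of that of Uqcrq. Much of the rest of Uqcrh stood on Uqcrh-205, a retained-intron transcript, at 45.5 and 43.9 TPM.

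Complex IV, cytochrome c oxidase, had the highest median once its tissue isoforms were set aside: its 11 general subunit genes had a median of 74.4 TPM for replicate 1 and 86.5 TPM for replicate 2. Cox4i1, the subunit through which ATP is known to inhibit the enzyme, led at 188 and 198 TPM. Cox8a followed at 157 and 160 TPM, then Cox5b at 117 and 138 TPM, which Cox6a1 at 124 and 124 TPM overlapped. The lowest general subunit genes were Cox7b at 51.0 and 58.2 TPM, Cox5a at 55.8 and 57.1 TPM, and Cox7a2 at 57.5 and 57.7 TPM. In the second table Cox5a was lowest at 65.6 and 64.0 TPM, while Cox7b at 85.7 and 91.7 TPM and Cox7a2 at 99.7 and 95.4 TPM stood above Ndufa4 by mean, at 78.3 and 91.2 TPM. Nearly all of Cox7b in the second table, 99.6% and 99.7%, stood on the retained-intron transcript Cox7b-203. Its protein-coding Cox7b-201 stood at 0.30 and 0.30 TPM there. In the gene table Cox7b-203 held 59.9% and 63.5%. Ndufa4, named as a complex I subunit and known to belong to complex IV, stood at 74.4 and 86.5 TPM, and Cox7a2l, a factor that joins complexes into supercomplexes, at 55.7 and 56.2 TPM.

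The complex IV isoforms known from heart and muscle, testis, lung or low oxygen were nearly all at or near 0. Cox7b2, Cox8b, Cox8c and Ndufa4l2 had no read in either library. Against a floor of 3 reads in each library, Cox7b was at least 142-fold and 157-fold higher than Cox7b2, Cox8a at least 257-fold and 254-fold higher than Cox8b, and Ndufa4 at least 314-fold and 352-fold higher than Ndufa4l2. Cox4i2, the lung and hypoxia isoform, had 5 reads in replicate 1 and 0 reads in replicate 2. The muscle isoforms Cox6a2 and Cox7a1 had 1 and 1 read and 4 and 8 reads.

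Cox6b2 was the exception. This gene, known as the testis form of Cox6b, had 83 reads in replicate 1 and 130 reads in replicate 2, or 11.4 and 18.5 TPM, against 113 and 124 TPM for Cox6b1. Its level per length was thus 10.02% and 14.96% of that of the general form. The second deposited transcript table gave 10.5 and 16.0 TPM, and no stretch of read length in Cox6b2 was identical in another annotated transcript.

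**Figure D2:**
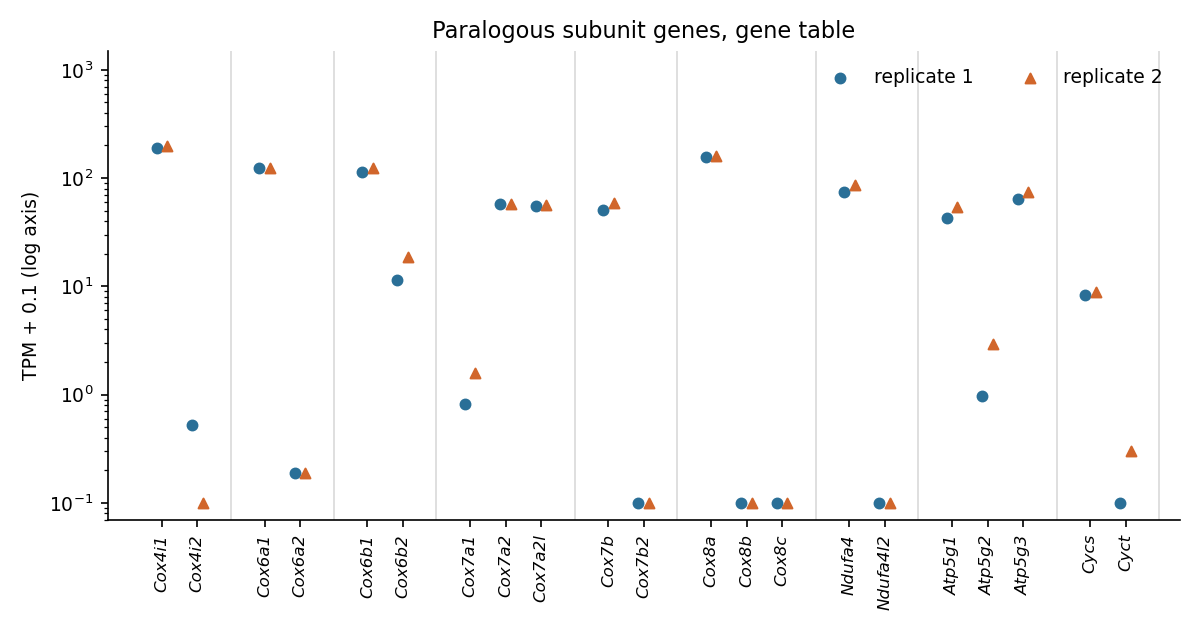
TPM plus 0.1 on a log axis for paralogous subunit genes in both libraries (blue circles, replicate 1; orange triangles, replicate 2; points at the bottom had no reads). In each complex IV family the isoform of restricted tissues was below the general form, and Cox6b2 came nearest at 11.4 and 18.5 TPM.

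Complex V, the ATP synthase, had medians of 60.8 and 67.6 TPM over 16 subunit genes and held the highest member. Atp5b (ENSMUSG00000025393.12, chr10:128083273-128090391 on mm10), the catalytic beta subunit of the F1 head, stood at 237 TPM in replicate 1 and 249 TPM in replicate 2. Atp5a1, the alpha subunit, stood at 119 and 127 TPM on nearly as many reads, 5139 and 5164 against 5241 and 5587. Protein-coding transcripts held 54.4% and 58.9% of the TPM of Atp5b and 93.8% and 90.3% of that of Atp5a1. Much of the rest of Atp5b stood on Atp5b-206, a processed transcript of 478 bases, at 75.1 and 75.7 TPM, while the protein-coding Atp5b-201 stood at 129 and 147 TPM. Atp5h, a subunit of the peripheral stalk, followed at 99.8 and 115 TPM. In the second table Atp5e, of the F1 head, came above both at 155 and 174 TPM. There Atp5h stood at 145 and 170 TPM and Atp5a1 at 138 and 146 TPM. The lowest subunit genes past 10 TPM were Atp5k at 39.7 and 38.5 TPM and Atp5g1 at 42.3 and 54.1 TPM. Atp5s, a factor associated with the enzyme, stood at 1.45 and 1.43 TPM.

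The ring that turns in the membrane is built from identical copies of subunit c, which 3 genes encode with different import peptides. Atp5g3 stood at 64.2 TPM in replicate 1 and 73.9 TPM in replicate 2 and Atp5g1 at 42.3 and 54.1 TPM. Atp5g2 stood at 0.86 and 2.81 TPM, from 9.71 and 30.9 estimated reads, the lowest value of any subunit gene outside the tissue isoforms. The second transcript table, estimated from the same reads in another way, put Atp5g2 at 90.4 and 88.5 TPM, from 882 and 870 reads, above both other genes.

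The sequence of Atp5g2 is shown here because its reads can be placed at 2 loci. The coding sequence of transcript ENSMUST00000075630.9 (gene at chr15:102662864-102672352, minus strand, on mm10), 438 bases in all, was identical throughout in the transcribed processed pseudogene Gm10175 (chr7:23946646-23947290). Its first 150 bases, spliced and from GENCODE M21, stand for both genes.
Atp5g2 and Gm10175: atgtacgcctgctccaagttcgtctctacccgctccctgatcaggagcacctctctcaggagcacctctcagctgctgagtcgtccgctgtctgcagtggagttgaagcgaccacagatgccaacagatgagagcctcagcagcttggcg
In the gene table Gm10175 held 909 reads in replicate 1 and 879 reads in replicate 2, while the second table gave it 34.8 and 41.1 reads. With a further copy, Gm10231, at 0 reads in the gene table, both loci together held 919 and 910 reads in the gene table and 917 and 911 reads in the second. The sum was stable and its division was not: the gene table gave the reads to the pseudogene and the second table to Atp5g2. The deposited posterior SD of the Atp5g2 count was 9.87 and 12.9 reads, far less than this gap.

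Atp5g2 was the extreme of a pattern among the members. Windows of 101 bases were read along every transcript, and 23 of the 96 members had at least 1 window that stood unchanged in a transcript of another gene, mostly a processed pseudogene. In 18 members at least 5% of windows were shared. Across 86 members at 1 TPM or more in both tables, the second table was higher for 73, with a median fold of 1.17. That fold was 1.13 over the 65 with no shared window and 1.41 over the 16 with at least 5% shared. Single genes with no shared window also rose well above these medians, such as Atp5e at 1.98-fold, Ndufaf3 at 1.83-fold and Cox7a2 at 1.69-fold. The tables also differ in effective length, which takes 100 bases off each length in the gene table and a median of 266 and 268 bases, for sequences over 1000 bases, in the second.

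Of the 96 members, 5 were at least 2-fold higher in the second table and 0 at least 2-fold lower. Cycs, cytochrome c, went from 8.15 and 8.78 TPM in the gene table to 34.0 and 27.9 TPM in the second, and its reads from 295 and 354 to 508 and 511. Most of the gain in TPM stood on Cycs-201, a retained-intron transcript, which went from 3.61 and 2.85 to 29.0 and 22.1 TPM, while the protein-coding Cycs-202 stood at 4.54 and 5.93 TPM in the gene table and 4.996 and 5.797 TPM in the second. Windows shared with other genes made up 24.6% of those of Cycs. Its copies Gm10053, annotated as protein-coding, and Gm10108 held 495 and 419 reads in the gene table, more than Cycs itself. Cyct, the testis form of cytochrome c, had 0 reads and 2 reads. Ndufb4, the lowest complex I subunit gene, went from 14.3 and 14.9 TPM to 33.2 and 38.1 TPM, and its copy Ndufb4c on chromosome 15 held 167 and 192 reads in the gene table and 0 in the second.

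The others of the 5 were Cox7c and Ndufaf2. Cox7c went from 63.5 and 81.3 TPM to 139 and 158 TPM, with 420 and 400 reads on its copies Gm12338 and Gm10012 in the gene table. Ndufaf2 went from 0.78 and 1.32 TPM to 2.42 and 2.23 TPM on few reads and with no shared window. Atp5l, a membrane subunit of ATP synthase with 61.3% of windows shared, had 1206 and 1004 reads beside 531 and 610 reads on its copies, and went from 89.9 and 80.5 TPM to 127 and 113 TPM. The second Atp5o identifier had no reads in either table, and the first held 739 and 788 reads in the gene table.

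**Figure D3:**
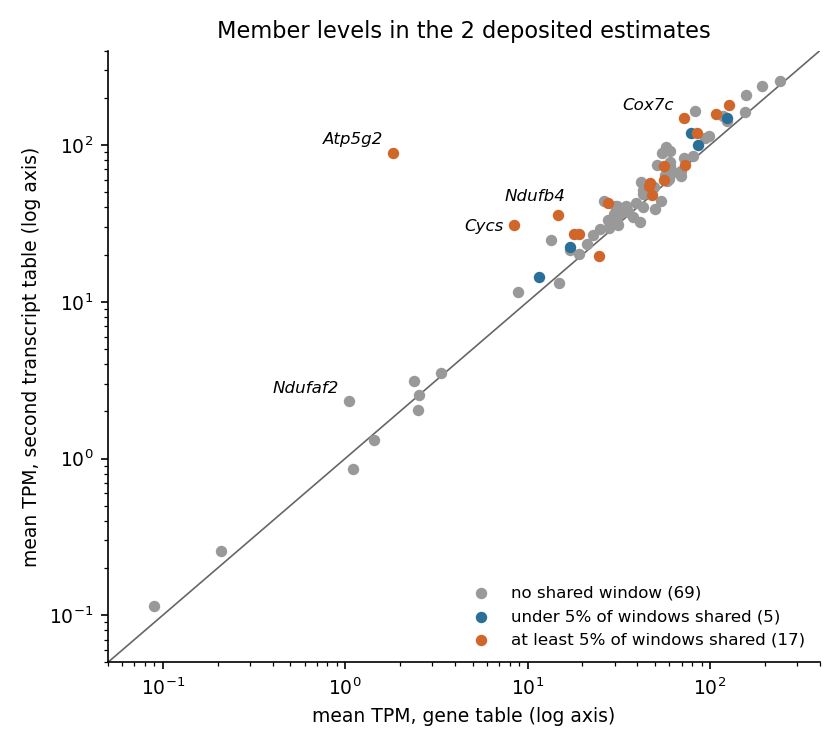
Mean TPM of each member in the gene table (x axis, log) and in the second transcript table (y axis, log), coloured by the share of windows identical in another gene. The line marks equal values, and Atp5g2, Cycs, Ndufb4, Cox7c and Ndufaf2 are at least 2-fold above it.

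**Figure D4:**
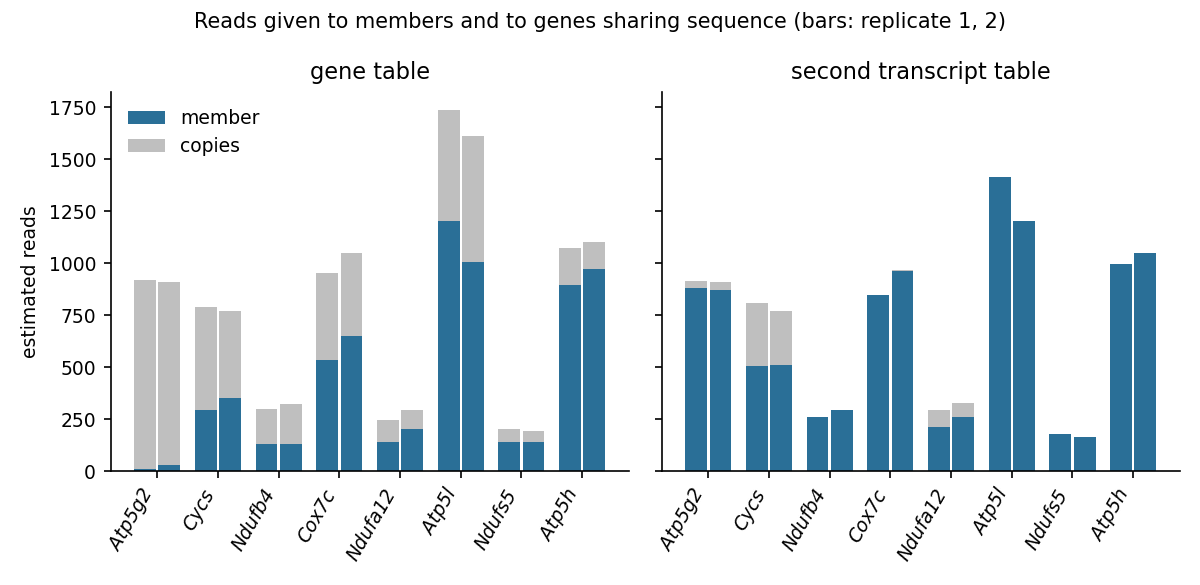
Estimated reads given to 8 members (blue) and to the genes that share at least 5% of their windows (grey), in the gene table on the left and in the second table on the right, with a bar for each library. For Atp5g2 the sums are 919 and 910 reads on the left and 917 and 911 on the right, while the colours trade places.

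The type of transcript that carried a member's level also varied. Protein-coding transcripts held 76.4% of the members' TPM in replicate 1 and 78.0% in replicate 2, against 80.5% and 80.9% over all protein-coding genes. Retained-intron transcripts held 10.1% and 9.53%, transcripts of no coding class 8.23% and 7.95%, and transcripts marked for nonsense-mediated decay 5.24% and 4.55%. Of the 79 members at 10 TPM or more, 43 had over 90% of their TPM in protein-coding transcripts.

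In a few members a short transcript of another class took most of the level. For Ndufa3, the highest complex I subunit gene, 89.1% and 88.6% of the TPM stood on Ndufa3-204, a decay-class transcript of 343 bases, and its protein-coding transcripts took 7.44% and 8.53%. For Atp5j, a peripheral stalk subunit at 56.9 and 64.5 TPM, 81.1% and 79.7% stood on Atp5j-208, a retained-intron transcript of 526 bases. Protein-coding transcripts of Atp5j took 5.20% and 9.91%, by mean the lowest share of the members at 10 TPM, although Ndufa3 was lower in replicate 2.

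The next 3 were Ndufb4, Ndufa10 and Cox5b. Ndufb4-202, with a retained intron, took 75.8% and 76.2% of the TPM of Ndufb4, and Cox5b-205, a processed transcript of 362 bases, took 71.9% and 71.3% of that of Cox5b. In Ndufa10 no transcript dominated, and the protein-coding Ndufa10-201 took 8.92% in replicate 1 and 25.7% in replicate 2. The second table placed 77.7% and 75.8% of Ndufa3 on Ndufa3-204 and 62.4% and 67.9% of Atp5j on Atp5j-208. The part of the estimation in these shares was not tested.

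The libraries were compared gene by gene to see how far the members' levels repeat. Each gene's rounded counts were set against the library totals in an exact binomial test, two-sided, with Benjamini-Hochberg adjustment. Calls needed an adjusted p of 0.05 or less together with a ratio of 2-fold or more. Its p-values hold counting error only, and the test compares these libraries, not conditions. Of the 96 members, 85 had the summed count of 50 needed for it, and 0 were called, where 2.27% of the 12434 genes tested were called. The exact test of edgeR with a common dispersion called 0 members, and 1.399% of all genes. Its dispersion was estimated from these same 2 libraries taken as 1 group. The differences between them therefore widen it, and it calls fewer genes by its making. An unadjusted p under 0.05 was found for 21 members in the binomial test (24.7%, against 34.5% of all genes tested).

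Within those limits, small differences pointed more often one way. The log2 ratio, replicate 2 over replicate 1, was above 0 for 57 of 85 members (67.1%), against 49.9% of all genes tested, with medians of 0.073 and -0.00063; with ERCC reads as the offset the members' median was -0.01 and that of all genes -0.08. Of the members, 83 (97.6%) lay within 1.5-fold, against 93.0% of all genes. At an adjusted p of at most 0.05 with no fold threshold, 13 members passed (15.3%), against 24.7% of all genes tested, 12 of them higher in replicate 2 (11.8% of all genes) and 1 lower (12.9% of all genes).

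Those 13 included Atp5b and Cox4i1, the highest members by TPM, with folds of 1.09 for Atp5b, from 5241 and 5587 reads, and 1.08 for Cox4i1, from 2085 and 2196 reads. Of the 16 tested members with at least 5% of windows shared, 8 were among the 13, and of the 69 others, 5. The only member lower in replicate 2 was Atp5l, at 0.85-fold (95% interval 0.78 to 0.93, exact Clopper-Pearson), one of the genes that share windows.

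Among the 85 members tested, the largest ratio was that of Ndufab1, the mitochondrial acyl carrier protein that also sits in complex I. It had 144 reads in replicate 1 and 257 reads in replicate 2 (1.83-fold, interval 1.49 to 2.26). Its copy Gm4459 had 25.3 reads in replicate 1 and 0 in replicate 2, and the second table gave Ndufab1 17.8 and 21.6 TPM in place of 17.2 and 32.2 TPM. Cox6b2 was next at 1.60-fold (interval 1.21 to 2.14), from the 83 and 130 reads given above. These were the only members past a fold of 1.5 at an adjusted p of at most 0.05, where 4.98% of all genes tested passed.

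Ndufa12 at 1.49-fold, Ndufc1 at 1.36-fold and Ndufa5 at 1.28-fold completed the 5 largest ratios of those tested. Ndufa5 did not pass (adjusted p = 0.22, exact binomial test with Benjamini-Hochberg adjustment). At the other end stood 3 complex I assembly factors, Ndufaf5 at 0.78-fold, Ndufaf1 at 0.79-fold and Ndufaf7 at 0.82-fold, then Atp5l and Ndufb3 at 0.86-fold. Of these only Atp5l passed.

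By complex, ratios above 0 were 22 of 36 for complex I subunits, 3 of 4 for complex II, 7 of 9 for complex III, 10 of 12 for complex IV and 12 of 15 for complex V. Of 7 tested assembly factors of complex I, 2 were above 0. Neutrophil markers differed between the libraries too, with 4 of 11 ratios above 0 and a median log2 ratio of -0.14: Csf3r stood at 0.83-fold and Retnlg at 0.84-fold, and Mpo and Elane, genes of early neutrophil stages, at 1.29-fold and 1.33-fold. So did marker genes of other cells: replicate 2 had 4 of 7 erythroid genes called higher and 4 of 5 B cell genes called lower, and all 5 genes of proliferating precursors had ratios above 0, with a median log2 ratio of 0.31. The part of these in the members' ratios was not tested.

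**Figure D5:**
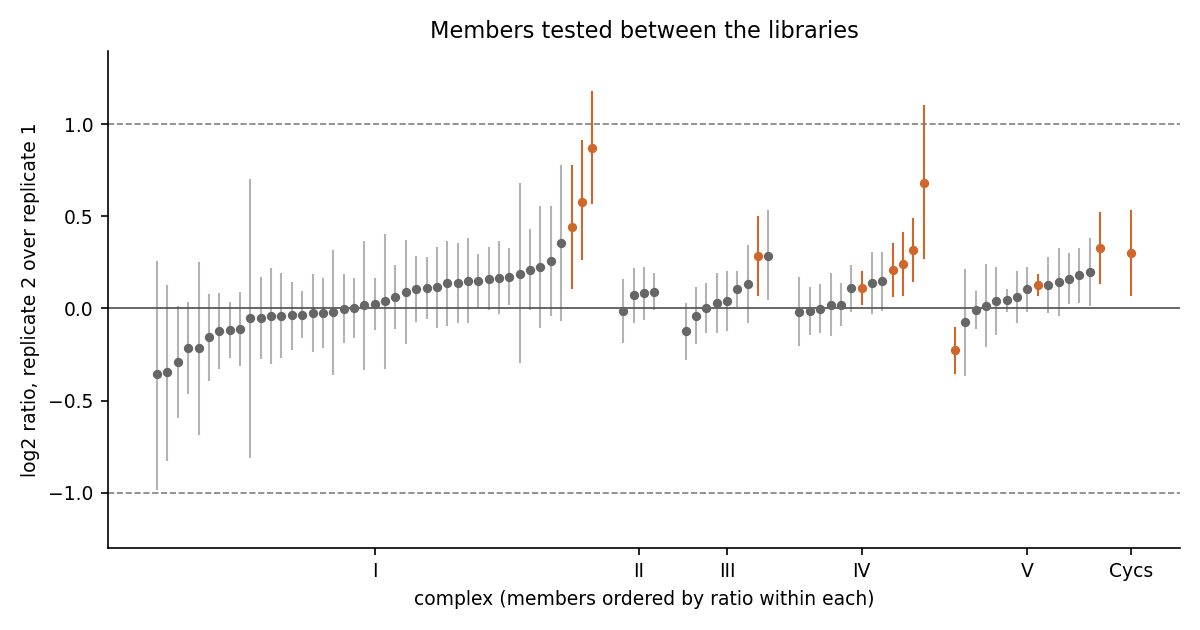
Log2 ratio of reads, replicate 2 over replicate 1, for the 85 members tested, ordered within each complex, with exact intervals at 95% for counting error. Orange marks the 13 with an adjusted p of at most 0.05; no point reaches the dashed lines at 2-fold, and Ndufab1 comes nearest at 1.83-fold.

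The genes around the chain gave the setting of these levels. The citric acid cycle and its entry, 17 genes, had medians of 30.1 and 29.5 TPM, all at 1 TPM or more, led by Dlst at 150 and 145 TPM, Mdh2 at 103 and 112 TPM, and Ogdh at 63.2 and 58.6 TPM. Dlst and Ogdh encode parts of the oxoglutarate dehydrogenase complex. Coenzyme Q synthesis, 13 genes, stood much lower at medians of 5.74 and 6.35 TPM, led by Coq10b at 14.3 and 12.8 TPM, Coq9 at 12.5 and 11.6 TPM, and Coq8b at 9.70 and 9.77 TPM. Coq3, a methyltransferase of that pathway, was under 1 TPM at 0.95 and 0.86.

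Among the carriers that link the chain to the cell, Ucp2 was higher than any member. This uncoupling protein family gene of the inner membrane stood at 694 TPM in replicate 1 and 686 TPM in replicate 2. Slc25a5, an exchanger of ADP and ATP, stood at 142 and 157 TPM, and Slc25a3, the phosphate carrier, at 145 and 138 TPM. Ucp1, the brown fat uncoupler, and Slc25a31, the testis exchanger, had no reads, and Ucp3 had 0.10 and 0.13 TPM.

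Genes that keep and transcribe mitochondrial DNA, 14 in all, had medians of 4.75 and 5.83 TPM. Polg, the mitochondrial DNA polymerase, led at 42.9 and 44.9 TPM, followed by Mterf3 at 21.4 and 14.0 TPM and Ssbp1 at 11.2 and 11.9 TPM, and Mterf2 at 1.15 and 0.68 TPM was under 1 TPM in replicate 2. Of the supercomplex and hypoxia-linked factors, Higd2a stood at 30.1 and 29.4 TPM and Higd1a at 14.6 and 15.4 TPM after Cox7a2l, and Higd1b and Higd1c had no reads. In none of the 8 lists of related genes was a gene called between the libraries by the exact binomial test, though single genes passed at an adjusted p of at most 0.05 below 2-fold, such as Tfam, the packing factor of mitochondrial DNA, at 7.22 and 10.9 TPM.

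Some subunit genes and related genes fall outside the naming rule. Ndufb1-ps, whose symbol marks it as a pseudogene, stood at 33.0 and 30.0 TPM, near the complex I median. Usmg5, a small subunit of ATP synthase, stood at 73.6 and 82.8 TPM, and Atpif1, the inhibitor of its reverse action, at 59.2 and 81.1 TPM. None of them was called between the libraries. Atpif1 missed a call by fold only, at 1.36-fold (adjusted p = 4.3e-06, exact binomial test with Benjamini-Hochberg adjustment).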

How the data were processed

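Per the labels and the deposited file lists, total RNA of 2 libraries was quantified on mm10 with annotation M21; aligner and estimators: not given in the sources used here. The authors' gene table holds expected counts and TPM per gene, with a posterior mean TPM, and their transcript table gives the percent of a gene's TPM per transcript. A second deposited table, estimated from reads, holds estimated counts and TPM per transcript. Reads from C57BL/6 and CAST/EiJ alleles are not separated.

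Levels are TPM per library. The libraries were compared on expected counts rounded to whole numbers, with reads of annotated genes other than rRNA (18060581 and 17609100) as offsets and 0.5 added to counts for ratios; genes needed 50 reads over both libraries. The comparison was tested first on simulated counts with planted changes. Those counts held Poisson error only, so they cannot show how the test behaves where libraries differ beyond counting error. Intervals and the 3-read floor cover counting error only. Alternatives used edgeR 4.0.16 and DESeq2 1.42.0 (R 4.3.3); other steps used Python 3.11.15.

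Named were subunit genes under 1 TPM, the 3 highest and 3 lowest subunit genes of each complex, paralogue families, the 5 largest and smallest ratios, the 5 lowest protein-coding shares, all assembly factors, and of related lists the 3 highest genes and those under 1 TPM. Other named genes were chosen after their values were seen. Members, roles and lists were chosen with earlier results of these data known. Shared windows and the removal of isoforms or sharing genes were added after seeing the data.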

Additional observations from a re-analysis of the deposited data

How the results depend on the processing

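The second transcript table moved most levels: the median of structural subunit genes was 47.5 TPM in place of 42.5, and those of complexes I to V were 35.6, 43.9, 56.9, 84.7 and 74.8 TPM. Members then took 0.378% of protein-coding reads, and protein-coding transcripts 72% of their TPM. Computed per annotated length, the medians of all subunit genes and of complexes I, II and IV were 46.4, 34.0, 51.0 and 61.2 TPM. Without tissue isoforms, all subunit genes stood at 45.9 TPM and complex IV at 80.5 TPM, and without genes sharing 5% of windows complexes III and IV stood at 54.1 and 54.0 TPM. Posterior mean TPM put complex IV at 55.0 TPM. The subunit minus assembly factor difference was 3.34 with a pseudocount of 0.1, 2.67 with means and 2.75 with posterior TPM. At a fold of 1.5, 2 members were called (Ndufab1 and Cox6b2), and with a summed count of at least 10, 1 of 89 (Atp5g2), where 3.62% of all genes were. With ERCC reads as the offset, the members' median log2 ratio was -0.0059. The cause of these moves was not tested, except where the setting itself leaves genes out or lowers a threshold. The other alternatives tried kept their direction and side of the threshold. No paired analysis was possible because there is 1 group. No group had 4 samples, so none was examined for a sample standing apart. The 11 members under 50 summed reads had no test, and the part of depth in this was not tested. Among the members, 5 had no read in either library. One of these, the second Atp5o identifier, shared 76.7% of its windows with other genes. For Atp5g2, 9.71 and 30.9 reads stood beside 909 and 879 reads on its copies in the gene table. In the second table Atp5g2 had 882 and 870 reads, past the 50 needed.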
